A study of Arabidopsis thaliana with 15 samples.

Results

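From the 33601 loci of the deposited count table, 10 genes of the jasmonate pathway were taken by their locus identifiers, as makers, degraders and classic outputs of the wound hormone. All 10 passed the filter on low counts. The 6 synthesis genes were LOX2, LOX3, AOS, AOC1, AOC2 and OPR3, the 2 catabolic genes were CYP94B3 and CYP94C1, and the 2 output genes were VSP1 and VSP2. In the ref4-3 cdk8-1 double mutant all 10 fell against WT, by 1.47 to 4.26 on the log2 scale. In the single mutants fewer of them passed the test, with 0 in ref4-1, 6 in ref4-3 and 5 in cdk8-1. Of all 18935 tested genes, 42.6% were called in the double mutant, 20.9% in ref4-1, 39.9% in ref4-3 and 19.8% in cdk8-1. Those called lower were 21.6%, 10.2%, 19.6% and 11.8%, in the same order.

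Jasmonate is made from linolenic acid in the chloroplast, where a 13-lipoxygenase, allene oxide synthase and allene oxide cyclase act in sequence, and the product is reduced by OPR3 in the peroxisome. The conjugate jasmonoyl-isoleucine joins the receptor COI1 to JAZ proteins, which are then degraded and release MYC transcription factors. Synthesis genes, JAZ genes and catabolic genes are themselves known targets of this signal, and leaf VSP transcripts are a standard marker of it.

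Whole rosettes of Arabidopsis thaliana, accession Col-0, were profiled by sequencing of polyadenylated RNA. The genotypes were ref4-1 and ref4-3, both mutants of the Mediator tail subunit MED5B, then cdk8-1, a mutant of the kinase of the Mediator kinase module, the double mutant ref4-3 cdk8-1, and the wild type (WT). Each had 3 libraries, and each library pooled 5 rosettes of 20 days that were collected 6.5 h after subjective dawn, in cycles of 16 h light and 8 h dark at 23 C. Every genotype is 1 line as far as the labels tell, and the sample titles drop a letter from the double mutant's name that its genotype field gives in full. The labels name no wounding and no hormone treatment.

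Libraries held 9573567 to 16803904 counts in genes, so 1 count was worth 0.0595 to 0.104 CPM (counts scaled to library size, here after TMM). CDK8 averaged 4.51 ± 0.17 CPM in cdk8-1, 5.41 ± 1.1 CPM in ref4-3 cdk8-1 and 19.5 ± 1.28 CPM in WT (SD, n = 3 each). In cdk8-1 it fell by 2.11 ± 0.13 on the log2 scale (edgeR adjusted p = 2.80e-09). Missense alleles such as those of MED5B cannot be checked by level, and MED5B averaged 28.3 CPM in ref4-1, 29.9 CPM in ref4-3 and 24.8 CPM in WT. Marker levels were those of leaves, since the 7 flower organ markers summed to 1.21 to 5.94 CPM and the 4 root markers to 0.438 to 1.51 CPM, against 14610 to 31760 CPM for the 4 leaf mesophyll markers. Mesophyll markers summed to 16260 to 20750 CPM in ref4-1, 14610 to 16670 CPM in ref4-3, 29660 to 31760 CPM in cdk8-1, 18590 to 19740 CPM in ref4-3 cdk8-1 and 23550 to 26170 CPM in WT. All 4 of them fell in ref4-1, ref4-3 and the double mutant, and 3 of 4 rose in cdk8-1. The 2 markers of myrosin cells, TGG1 and TGG2, also fell in ref4-1, ref4-3 and the double mutant. Their sums were 7016 to 8887, 6252 to 6825 and 5573 to 7392 CPM in those genotypes and 10850 to 12320 CPM in WT. In cdk8-1 TGG2 fell, at −0.55 log2, while TGG1 was at 0.20, uncalled, and the sum was 10330 to 11950 CPM. The 4 phloem markers summed to 392.3 to 442.1 CPM in ref4-1, 431 to 490 CPM in ref4-3, 255 to 268 CPM in cdk8-1, 351 to 409 CPM in ref4-3 cdk8-1 and 357 to 390 CPM in WT. Of these 4, 1 rose and 1 fell in ref4-1, and 2 rose and 1 fell in ref4-3. In cdk8-1, 0 rose and 2 fell, and in the double mutant 1 rose and 2 fell. The 5 xylem markers summed to 57.5 to 67.0 CPM in ref4-1, 52.9 to 77.3 CPM in ref4-3, 132 to 142 CPM in cdk8-1, 101 to 135 CPM in ref4-3 cdk8-1 and 85.7 to 97.6 CPM in WT. Of these 5, 4 fell in ref4-1 and 2 fell in ref4-3. In cdk8-1 only XCP1 rose, at 1.2 log2, and in the double mutant 1 rose. The part of these marker shifts in the jasmonate results was not tested, and in whole rosettes fewer cells of a type and less RNA per cell cannot be told apart.

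In each of 3 genotypes 1 library was the lowest or the highest of its group in all 10 genes. WT replicate 3 was the lowest of its group in 10 of 10 genes, with a median deviation from the group mean of −0.42 on the log2 scale. ref4-1 replicate 3 was likewise the lowest in 10 of 10, at a median of −0.65, and ref4-3 replicate 2 was the highest in 10 of 10, at 0.54. The median absolute deviation over all genes of at least 5 CPM was 0.0586 in that WT library, 0.0964 in that ref4-1 library and 0.0633 in that ref4-3 library. Smaller shifts were seen in cdk8-1 replicate 2, the lowest in 8 of 10 genes at a median of −0.21. In ref4-3 cdk8-1, replicate 3 was the highest in 9 of 10, at 0.19. Over all genes the median absolute deviation was 0.0549 in that cdk8-1 library and 0.0561 in that double mutant library. The jasmonate genes thus moved together between pools of 1 genotype. Some results below are also given without a named library, and others only as ranges over fits with a library left out.

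The upstream sequences are shown for 5 genes because the G-box, CACGTG, and its variants CACATG and AACGTG are the letters bound by MYC factors, and because VSP1 and VSP2 are neighbouring copies whose levels came apart. Each is the 300 bases before the annotated gene start, on the strand of the gene, from RefSeq assembly TAIR10.1: chr3:16524945-16525244 (plus) for LOX2, chr5:17099596-17099895 (minus) for AOS, chr2:11808979-11809278 (plus) for CYP94C1, chr5:8509202-8509501 (minus) for VSP1 and chr5:8502225-8502524 (minus) for VSP2. Capitals in the first 3 mark CACGTG or CACATG, searched on both strands. Capitals in VSP1 and VSP2 mark runs of at least 12 bases that the 2 windows share.
LOX2: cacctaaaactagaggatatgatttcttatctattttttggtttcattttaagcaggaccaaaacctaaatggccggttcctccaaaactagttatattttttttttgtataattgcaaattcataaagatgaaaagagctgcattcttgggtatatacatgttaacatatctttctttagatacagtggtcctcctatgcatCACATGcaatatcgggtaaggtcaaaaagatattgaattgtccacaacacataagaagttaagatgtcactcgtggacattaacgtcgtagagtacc
AOS: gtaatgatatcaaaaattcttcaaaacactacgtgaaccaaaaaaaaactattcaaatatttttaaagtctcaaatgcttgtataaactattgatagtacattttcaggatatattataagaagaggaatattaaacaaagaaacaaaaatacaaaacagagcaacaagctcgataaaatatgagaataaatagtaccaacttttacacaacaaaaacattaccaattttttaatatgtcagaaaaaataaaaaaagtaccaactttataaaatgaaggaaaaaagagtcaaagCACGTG
CYP94C1: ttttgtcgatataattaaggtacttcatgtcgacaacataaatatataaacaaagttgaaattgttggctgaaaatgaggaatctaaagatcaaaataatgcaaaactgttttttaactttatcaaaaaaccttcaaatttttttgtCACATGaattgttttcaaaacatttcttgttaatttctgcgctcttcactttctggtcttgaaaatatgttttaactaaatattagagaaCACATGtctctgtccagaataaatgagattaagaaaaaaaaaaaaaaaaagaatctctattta
VSP1: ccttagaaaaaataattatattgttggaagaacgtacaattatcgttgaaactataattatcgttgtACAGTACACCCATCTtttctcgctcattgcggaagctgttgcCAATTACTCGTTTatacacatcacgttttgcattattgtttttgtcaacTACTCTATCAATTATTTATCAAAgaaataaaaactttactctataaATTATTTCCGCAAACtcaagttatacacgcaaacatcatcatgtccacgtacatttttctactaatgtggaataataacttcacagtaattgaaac
VSP2: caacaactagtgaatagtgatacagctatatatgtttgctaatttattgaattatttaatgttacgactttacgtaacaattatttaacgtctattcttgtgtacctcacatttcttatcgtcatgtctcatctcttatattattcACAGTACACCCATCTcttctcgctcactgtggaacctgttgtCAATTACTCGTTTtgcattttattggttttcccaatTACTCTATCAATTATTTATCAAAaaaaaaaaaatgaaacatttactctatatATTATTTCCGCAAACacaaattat

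CACGTG was found in 1 of the 10 windows, that of AOS, where its first base lies 6 bases before the gene start, and in 7.09% of the windows of 27443 genes. CACATG was found in 3 of 10, in LOX2 at 97 bases, LOX3 at 65 bases and CYP94C1 at 153 and 63 bases before the start, and in 13.1% of all windows. AACGTG was found in 2 of 10, AOC1 at 138 bases and VSP1 at 170 bases, and in 8.71% of all windows, while GCCGCC was in 0 of 10 and in 2.26% of all. Any of the first 3 motifs was in 6 of 10 windows and in 25.8% of all windows. The other 4 windows, of AOC2, OPR3, CYP94B3 and VSP2, held none of these letters. VSP1 and VSP2 shared 66 of 300 bases in such runs, or 22%, the longest of 23 bases.

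In TAIR10.1 the genes lie on 4 chromosomes. LOX2 (AT3G45140) is at chr3:16525245-16529352, LOX3 (AT1G17420) at chr1:5977323-5981521 and AOS (AT5G42650) at chr5:17097564-17099595. AOC1 (AT3G25760) at chr3:9403779-9405338 and AOC2 (AT3G25770) at chr3:9406669-9408071 stand 1330 bases apart, and OPR3 (AT2G06050) is at chr2:2359114-2362375. CYP94B3 (AT3G48520) is at chr3:17974853-17976774 and CYP94C1 (AT2G27690) at chr2:11809279-11811280. VSP1 (AT5G24780) at chr5:8507590-8509201 and VSP2 (AT5G24770) at chr5:8500468-8502224 stand 5365 bases apart. Coding bases were 90.3% identical between AOC1 and AOC2 and 89.3% identical between VSP1 and VSP2, so reads of 1 copy can be lost or moved to a similar gene. Of all 50-base stretches in the transcripts, 2.1% in AOC1, 0.08% in AOC2, 0.37% in VSP1 and 0.33% in VSP2 occurred in another gene, and none did in the other 6. For AOC1 and AOC2 the gene that shared most was AOC3 (AT3G25780), and for each VSP gene it was the other VSP gene. No exon of the 10 overlaps another annotated locus.

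Per kilobase of exon, LOX2 was the highest of the 10 in WT at 2425 ± 323 CPM per kb (SD, n = 3), which ranked 19 among the 18871 genes with a length. VSP1 followed at 1922 ± 566, AOC2 at 1278 ± 121 and VSP2 at 1119 ± 388 CPM per kb, and the spreads of these 3 overlap. VSP1 also overlapped LOX2, with 2332 CPM per kb in WT replicate 1 beside 2062 for LOX2 in WT replicate 3. Within each WT library LOX2 was the higher of the pair. AOS stood at 572 ± 110, AOC1 at 375 ± 69.3, OPR3 at 153 ± 35.5 and LOX3 at 37.5 ± 11.7 CPM per kb. The catabolic genes were far lower, with CYP94C1 at 8.04 ± 1.88 and CYP94B3 at 3.51 ± 1.22 CPM per kb. In ref4-3 cdk8-1 LOX2 remained the highest of the 10 at 529 ± 59.5 CPM per kb, at rank 118.

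LOX2, the lipoxygenase that supplies most leaf jasmonate, had 8038, 7831 and 4975 CPM in ref4-1, 4031, 6028 and 3621 CPM in ref4-3, and 4076, 3692 and 4183 CPM in cdk8-1. It had 1566, 1655 and 1936 CPM in ref4-3 cdk8-1 and 8720, 8229 and 6707 CPM in WT. The ranges of ref4-3 and cdk8-1 overlap each other, both lie below WT, and the double mutant lies below all 4 other genotypes. Against WT the double mutant was lower by a log2 fold change of −2.20 ± 0.18 (edgeR adjusted p = 2.67e-08), a 4.59-fold difference.

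LOX3, a second 13-lipoxygenase, had 215, 146 and 67.8 CPM in ref4-1, 44.7, 140 and 71.8 CPM in ref4-3, and 49.3, 37.8 and 48.7 CPM in cdk8-1. It had 22.2, 19.6 and 25.0 CPM in ref4-3 cdk8-1 and 135, 138 and 74.1 CPM in WT. Both ref4 single mutants overlapped WT, while cdk8-1 and the double mutant did not. The double mutant differed from WT by −2.38 ± 0.39 log2 (edgeR adjusted p = 8.04e-05).

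AOS, the allene oxide synthase encoded by a single gene, had 970, 1125 and 522 CPM in ref4-1, 388, 685 and 350 CPM in ref4-3, and 872, 740 and 906 CPM in cdk8-1. It had 288, 288 and 355 CPM in ref4-3 cdk8-1 and 1304, 1276 and 905 CPM in WT. The double mutant's highest library, at 355 CPM, stood above the lowest ref4-3 library, at 350 CPM, so those 2 groups overlap. Against WT the double mutant fell by 1.91 ± 0.25 on the log2 scale (edgeR adjusted p = 6.70e-06).

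AOC1, an allene oxide cyclase, had 374, 413 and 133 CPM in ref4-1, 101, 236 and 96.0 CPM in ref4-3, and 277, 223 and 303 CPM in cdk8-1. It had 59.8, 68.0 and 72.2 CPM in ref4-3 cdk8-1 and 497, 490 and 351 CPM in WT. AOC2, the neighbouring and more abundant cyclase, had 1488, 1546 and 909 CPM in ref4-1, 779, 1153 and 667 CPM in ref4-3, and 1063, 930 and 1150 CPM in cdk8-1. For both cyclases the double mutant was the lowest group with no overlap. AOC2 had 436, 443 and 536 CPM in ref4-3 cdk8-1 and 1733, 1771 and 1481 CPM in WT. The log2 fold change of the double mutant against WT was −2.74 ± 0.35 for AOC1 (edgeR adjusted p = 5.28e-06) and −1.82 ± 0.19 for AOC2 (edgeR adjusted p = 4.20e-07).

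OPR3, the peroxisomal reductase, had 291, 295 and 162 CPM in ref4-1, 129, 254 and 144 CPM in ref4-3, and 211, 154 and 196 CPM in cdk8-1. It had 81.7, 93.4 and 106 CPM in ref4-3 cdk8-1 and 292, 299 and 191 CPM in WT. All 3 single mutants overlapped WT. The double mutant did not, and its fall of 1.47 ± 0.24 on the log2 scale (edgeR adjusted p = 9.22e-05) was the smallest of the 10.

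CYP94B3, a P450 that hydroxylates jasmonoyl-isoleucine, had 16.5, 11.2 and 1.58 CPM in ref4-1, 2.87, 15.2 and 5.72 CPM in ref4-3, and 0.675, 0.185 and 1.77 CPM in cdk8-1. It had 1.22, 0.762 and 0.365 CPM in ref4-3 cdk8-1 and 6.2, 9.30 and 4.71 CPM in WT. The low groups rest on few reads, 8, 2 and 20 counts in the cdk8-1 libraries and 17, 12 and 5 counts in those of the double mutant. Both cdk8-1 genotypes lay below WT and overlapped each other, and both ref4 single mutants spread across the WT range. The double mutant differed from WT by −3.09 ± 0.81 log2 (edgeR adjusted p = 0.00495).

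CYP94C1, a P450 that oxidises the hydroxylated hormone further, had 14.4, 8.51 and 3.91 CPM in ref4-1, 2.59, 6.04 and 5.11 CPM in ref4-3, and 3.96, 2.49 and 3.37 CPM in cdk8-1. It had 0.429, 0.699 and 1.39 CPM in ref4-3 cdk8-1, from 6, 11 and 19 counts, and 17.7, 18.8 and 11.8 CPM in WT, from 206, 222 and 140 counts. ref4-3 and cdk8-1 overlap each other below WT, and the double mutant lies below both. Its log2 fold change against WT, −4.26 ± 0.45 (edgeR adjusted p = 4.64e-07), was the largest of the 10, a 19.2-fold difference.

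VSP1, a vegetative storage protein of the acid phosphatase family, had 3435, 1802 and 1360 CPM in ref4-1, 730, 1308 and 987 CPM in ref4-3, and 1414, 1743 and 2643 CPM in cdk8-1. It had 330, 220 and 472 CPM in ref4-3 cdk8-1 and 3120, 2887 and 1707 CPM in WT. The highest ref4-3 library, at 1308 CPM, stayed below the lowest libraries of ref4-1, at 1360 CPM, of cdk8-1, at 1414 CPM, and of WT. The double mutant fell by 2.92 ± 0.35 on the log2 scale against WT (edgeR adjusted p = 2.51e-06), a 7.55-fold difference.

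VSP2, its tandem partner, had 3335, 2428 and 1488 CPM in ref4-1, 1531, 2648 and 1721 CPM in ref4-3, and 685, 896 and 1283 CPM in cdk8-1. It had 317, 337 and 622 CPM in ref4-3 cdk8-1 and 1996, 2074 and 1019 CPM in WT. All 3 single mutants overlapped WT, and the group means were 2417 CPM in ref4-1, 1967 CPM in ref4-3 and 1696 CPM in WT. The double mutant was again the lowest group, with −2.0 ± 0.33 log2 against WT (edgeR adjusted p = 9.41e-05).

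**Figure D1:**
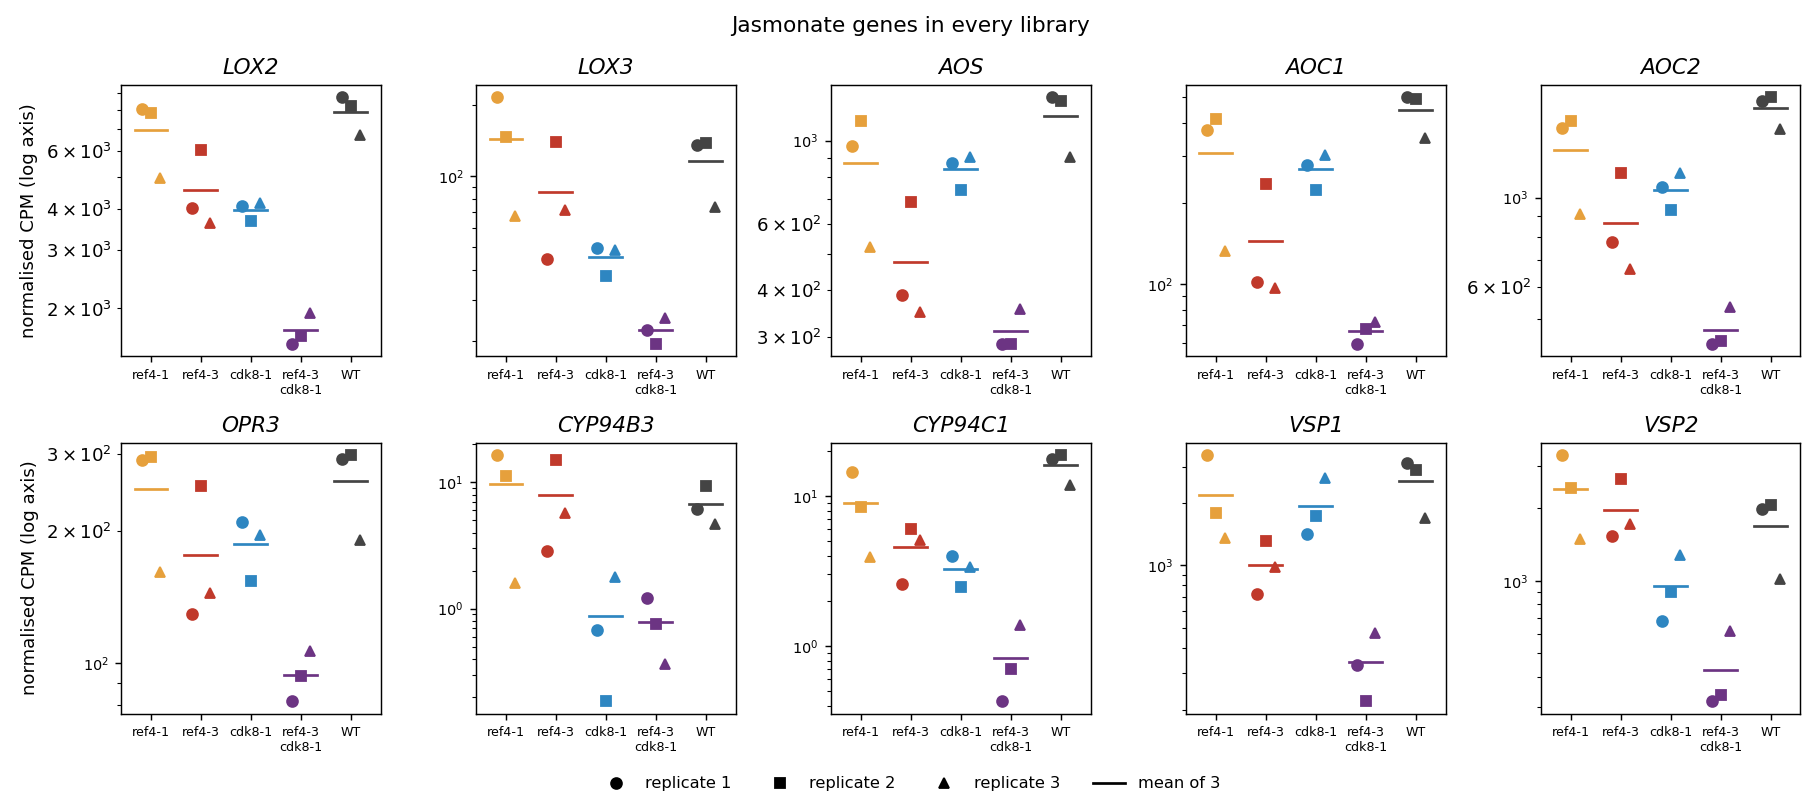
Normalised CPM (vertical log axis) of the 10 genes in each of the 15 libraries, by genotype on the horizontal axis, with marker shapes for replicates 1 to 3 and a line at the mean of 3 libraries. The 3 double mutant libraries lie below the 3 WT libraries in all 10 panels, and WT replicate 3 is the lowest WT library in each.

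Against WT the double mutant was thus lower in 10 of 10 genes, where 21.6% of all 18935 tested genes were called lower, 21% higher and 42.6% in either direction. The median log2 fold change of the 10 was −2.29, with a median of 0.02 over all tested genes. In 10 of 10 the 3 double mutant libraries lay below the 3 WT libraries, as they did for 26.2% of tested genes. DESeq2 and limma voom also called 10 of 10, and none of the 10 calls was lost when any 1 library was left out. All 4 mutants were set against the same 3 WT libraries.

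In ref4-3, 6 of 10 genes fell against WT, with a background of 19.6% called lower, 20.3% higher and 39.9% in either direction. These were AOS at −1.29 ± 0.24 log2 (edgeR adjusted p = 0.000378), AOC1 at −1.63 ± 0.33 (edgeR adjusted p = 0.000782), AOC2 at −0.94 ± 0.18 (edgeR adjusted p = 0.000521), LOX2 at −0.79 ± 0.18 (edgeR adjusted p = 0.00162), CYP94C1 at −1.83 ± 0.34 (edgeR adjusted p = 0.000325) and VSP1 at −1.35 ± 0.33 (edgeR adjusted p = 0.00326). The 4 that did not pass were LOX3 at −0.45 ± 0.35, OPR3 at −0.57 ± 0.24, CYP94B3 at 0.21 ± 0.56 and VSP2 at 0.21 ± 0.32. OPR3 was called without WT replicate 3, at −0.75, and without ref4-1 replicate 3 or with no filter on low counts, at −0.57 in both. OPR3 and LOX3 were called without ref4-3 replicate 2, at −0.93 and −0.99. CYP94B3 and VSP2 were at −0.66 and −0.06 without ref4-3 replicate 2, uncalled. The same 6 genes had no overlap between the groups, as did 23.7% of tested genes in that direction. When the reads of VSP1 and VSP2 were summed, the pair was at −0.52 and was not called (edgeR adjusted p = 0.204).

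In cdk8-1, 5 of 10 genes fell against WT, with a background of 11.8% called lower, 8.06% higher and 19.8% in either direction. They were LOX2 at −0.98 ± 0.18 log2 (edgeR adjusted p = 0.000561), LOX3 at −1.35 ± 0.37 (edgeR adjusted p = 0.0142), AOC2 at −0.67 ± 0.18 (edgeR adjusted p = 0.0147), CYP94B3 at −2.92 ± 0.84 (edgeR adjusted p = 0.0192) and CYP94C1 at −2.29 ± 0.37 (edgeR adjusted p = 0.000184). The others lay at −0.47 ± 0.24 for AOS, −0.74 ± 0.33 for AOC1, −0.48 ± 0.24 for OPR3, −0.41 ± 0.33 for VSP1 and −0.83 ± 0.32 for VSP2. In 6 of 10 genes, AOC1 among them, the groups had no overlap, as in 19.1% of tested genes in that direction. The count of calls was 9 with only those 2 genotypes in the model and 2 to 7 with a library left out. LOX3 and AOC2 were no longer called without WT replicate 1 or 2 or without cdk8-1 replicate 2, with adjusted p of 0.0502 to 0.0750. CYP94B3 was no longer called without WT replicate 2 or cdk8-1 replicate 1 or 2, with adjusted p of 0.0704 to 0.0833, or in limma voom, with 0.109. LOX2 and CYP94C1 were called under every alternative run.

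In ref4-1, 0 of 10 genes passed edgeR's test against WT, where 20.9% of tested genes were called in either direction, 10.2% lower and 10.7% higher. Only CYP94C1, at −0.80 ± 0.31 log2, had an unadjusted p under 0.05, and its adjusted p was 0.0740. DESeq2 called 0 of 10, and limma voom called 1, CYP94C1, at −0.88. The 10 values ran from −0.80 to 0.61 with a median of −0.20. Without ref4-1 replicate 1, CYP94C1 was called, at −1.29. The 2 highest values were those of CYP94B3, at 0.61 ± 0.54, and VSP2, at 0.51 ± 0.32 (edgeR adjusted p = 0.285).

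**Figure D2:**
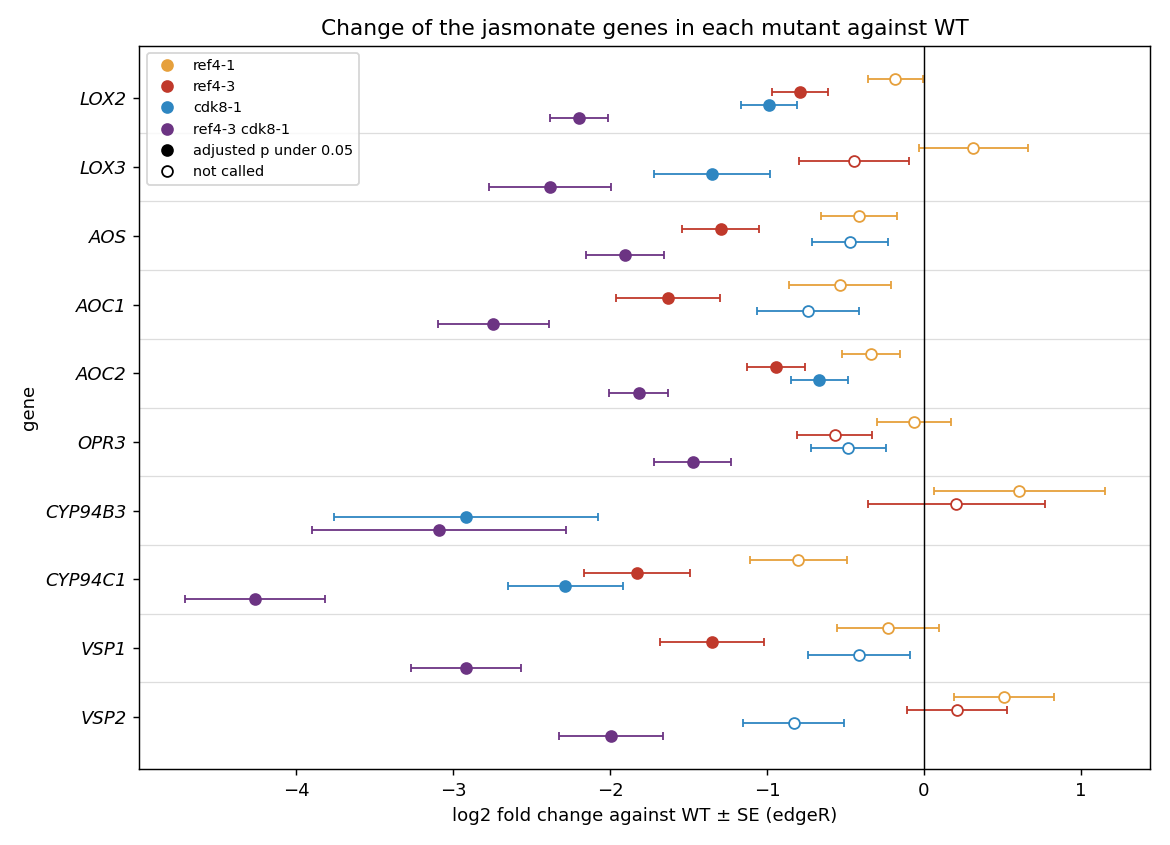
Log2 fold change of each gene against WT (horizontal axis) with its SE as bars, for 4 mutants with 3 libraries each, by gene down the page. Filled points passed an adjusted p of 0.05 in edgeR. All 10 double mutant points are filled and no ref4-1 point is.

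Set directly against ref4-1, ref4-3 was lower in 5 of 10 genes (background 6.39% called lower, 4.52% higher, 10.9% in either direction). These were LOX2 at −0.61 ± 0.18, AOS at −0.88 ± 0.24, AOC1 at −1.1 ± 0.33, AOC2 at −0.60 ± 0.18 and VSP1 at −1.13 ± 0.33 log2, with edgeR adjusted p of 0.0266 to 0.0419. The 2 groups overlapped for 9 of 10 genes, the exception being VSP1, while 13.8% of tested genes were lower in ref4-3 with no overlap. The count of calls was 0 without ref4-1 replicate 1, 8 without ref4-1 replicate 3 and 1 in DESeq2, so it rests on single libraries. With only those 2 genotypes in the model it was 0.

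In ref4-3 cdk8-1, 9 of 10 genes were lower than in ref4-3, with a background of 17% called lower, 15.9% higher and 33% in either direction. The largest differences were CYP94B3 at −3.30 ± 0.79 log2 (edgeR adjusted p = 0.00314), CYP94C1 at −2.43 ± 0.53 (edgeR adjusted p = 0.00151) and VSP2 at −2.21 ± 0.33 (edgeR adjusted p = 4.82e-05). LOX3 followed at −1.94, VSP1 at −1.57, LOX2 at −1.41, AOC1 at −1.11, OPR3 at −0.91 and AOC2 at −0.88. AOS was at −0.61 ± 0.24 (edgeR adjusted p = 0.0618). Without ref4-3 replicate 2, AOC1 was at −0.57 and OPR3 at −0.54, and neither was called. AOC1 was not called without replicate 1 of the double mutant either, at −1.04, nor was CYP94B3 in limma voom, at −3.04 with an adjusted p of 0.0627.

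In the same double mutant 8 of 10 genes were lower than in cdk8-1 (background 16.4% called lower, 16.4% higher, 32.8% in either direction). VSP1 was at −2.51 ± 0.34 log2 (edgeR adjusted p = 2.12e-05), AOC1 at −2.01 ± 0.34 (edgeR adjusted p = 0.000203) and CYP94C1 at −1.98 ± 0.57 (edgeR adjusted p = 0.0126). AOS was at −1.44, LOX2 at −1.21, VSP2 at −1.17, AOC2 at −1.15 and OPR3 at −0.99. LOX3 was at −1.03 ± 0.40 (edgeR adjusted p = 0.0586) with no overlap of the groups, as in 23.7% of tested genes, and CYP94B3 at −0.17 ± 1.21 (edgeR adjusted p = 0.930). VSP2 lost its call without cdk8-1 replicate 3 or without replicate 1 or 2 of the double mutant, with adjusted p of 0.0531 to 0.0642. CYP94C1 lost its call without cdk8-1 replicate 1 or without replicate 1 or 2 of the double mutant, with adjusted p of at most 0.0549.

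The interaction asks whether the ref4-3 difference was the same in both CDK8 backgrounds. By edgeR 0 of 10 genes passed, where 5.13% of tested genes were called, 2.05% below 0 and 3.07% above, and 2 genes had an unadjusted p under 0.05, while DESeq2 and limma voom called 0 each. These 2 were VSP2, at −1.38 ± 0.45 log2 (edgeR adjusted p = 0.0890), and VSP1, at −1.16 ± 0.46 (edgeR adjusted p = 0.166). All 10 values were below 0, with a median of −0.40 and 0.01 over all tested genes. They are not independent, since these genes moved together between pools. The values of AOS, AOC1, AOC2, CYP94B3 and CYP94C1 changed sign in some fits with a library left out. AOS, at −0.14 ± 0.34, and CYP94C1, at −0.15 ± 0.66, were the nearest to 0. For VSP2 the ref4-3 difference was −1.17 ± 0.32 in the cdk8-1 background and 0.21 ± 0.32, uncalled, in the CDK8 background, and the 2 values rest on separate libraries. VSP2 passed the interaction test without ref4-1 replicate 3 or without replicate 3 of the double mutant, at −1.39 and −1.76.

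**Figure D3:**
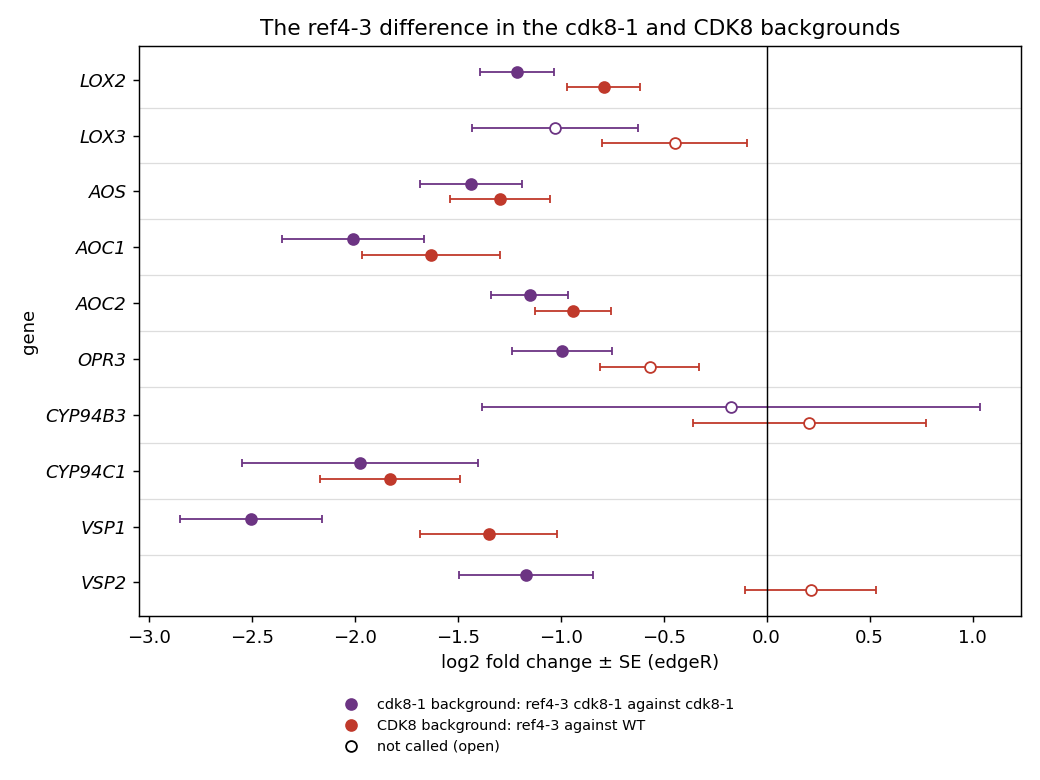
Log2 fold change (horizontal axis) of ref4-3 cdk8-1 against cdk8-1 and of ref4-3 against WT, with SE as bars and 3 libraries per genotype, by gene down the page. The value in the cdk8-1 background lies further left for each of the 10 genes, and for VSP2 the 2 values are −1.17 and 0.21. By edgeR's interaction test 0 of 10 genes passed.

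Within single libraries the 2 VSP genes did not keep 1 proportion. The ratio of VSP2 to VSP1, in counts per kb, was 0.857, 1.19 and 0.966 in ref4-1, 1.85, 1.79 and 1.54 in ref4-3, and 0.428, 0.454 and 0.429 in cdk8-1. It was 0.847, 1.35 and 1.16 in ref4-3 cdk8-1 and 0.565, 0.634 and 0.527 in WT. Every ref4-3 library exceeded every WT library, every double mutant library exceeded every cdk8-1 library, and every cdk8-1 library lay below every WT library. The pair was chosen after its levels had been seen, which the p-values of its ratio do not take into account. The ratio needs no scaling between libraries. Carrying ref4-3 raised it by 1.46 log2 units over the 2 CDK8 backgrounds (exact permutation test within background, two-sided, p = 0.005, the smallest that its 400 arrangements can give, 0.02 after Benjamini-Hochberg adjustment over the 12 ratio tests run). Carrying cdk8-1 lowered it by a difference of −0.52 (exact permutation p = 0.005, adjusted 0.02). In ref4-1 against WT the difference was 0.79 with no overlap, and the exact test of 3 against 3 cannot go below its p of 0.1. Leaving out any 1 library kept these differences between 1.39 and 1.55, between −0.59 and −0.42, and between 0.67 and 0.90 log2 units.

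The ratio of AOC2 to AOC1 was 3.65, 3.43 and 6.28 in ref4-1, 7.04, 4.48 and 6.36 in ref4-3, and 3.51, 3.81 and 3.48 in cdk8-1. It was 6.68, 5.97 and 6.80 in ref4-3 cdk8-1 and 3.19, 3.31 and 3.87 in WT. Carrying ref4-3 raised it by 0.81 log2 units (exact permutation p = 0.005, adjusted 0.02), and carrying cdk8-1 gave a difference of 0.10 (exact permutation p = 0.415). The ref4-1 value of 6.28 and the ref4-3 value of 4.48 came from the libraries in which the jasmonate genes stood lowest and highest for their genotype. Without that ref4-3 library the ref4-3 difference was 0.90 (exact permutation p = 0.005), and over all single libraries left out it ran from 0.74 to 0.90. In ref4-1 against WT the difference was 0.31, or 0.038 without that ref4-1 library (exact permutation p = 0.4 and 0.8). Of the other 2 pairs, LOX3 to LOX2 did not pass in any comparison, with adjusted exact permutation p of 0.192 to 0.415. CYP94B3 to CYP94C1 rose with ref4-3 by 2.07 log2 units (exact permutation p = 0.01, adjusted 0.03), on counts as low as 2. These 4 pairs were chosen after the levels had been seen, which the p-values of the ratio tests do not take into account.

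**Figure D4:**
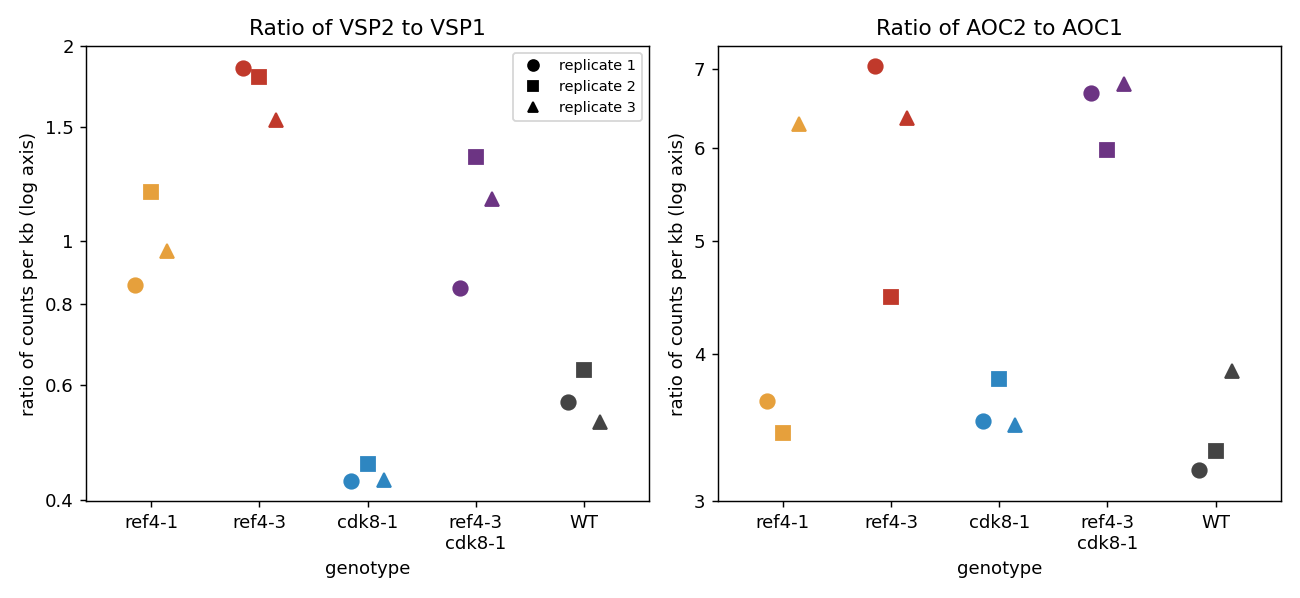
Ratio of VSP2 to VSP1 and of AOC2 to AOC1 in counts per kb of exon (vertical log axes), 1 point per library, by genotype. The 3 ref4-3 libraries lie at 1.54 to 1.85 for the VSP pair, above the 3 WT libraries at 0.527 to 0.634.

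The rest of the pathway was followed in lists by role, given as counts and medians, and every list gene named passed the test where it is said to have risen or fallen or where its value has an SE. Over the 7 lists together 72 genes were tested, and against WT ref4-1 had 17 of them called, or 23.6%, where 20.9% of all tested genes were called. ref4-3 had 36, or 50%, beside 39.9% of all, and cdk8-1 had 28, or 38.9%, beside 19.8%. The double mutant had 50, or 69.4%, beside 42.6%. Among 16 tested genes of other synthesis steps, 2 rose and 6 fell in ref4-3 cdk8-1, with a list median of −0.07 log2, so 8 of 16 were called, near the 42.6% of all tested genes. The 3 with the smallest adjusted p were OPCL1, a CoA ligase for the precursor, at −1.57 ± 0.14, LOX4 at −3.36 ± 0.43 and AOC3 at −2.12 ± 0.28. In ref4-3, 5 rose and 5 fell, among them the beta-oxidation genes KAT2 at 0.33 ± 0.06 and MFP2 at 0.25 ± 0.06. In cdk8-1, 0 rose and 4 fell, LOX4 at −1.75 ± 0.38 among them, and in ref4-1, 3 rose and 0 fell, near the 20.9% of all tested genes.

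All 8 tested genes of other turnover and conjugation steps fell in the double mutant, with a median of −2.10, where 21.6% of all tested genes were called lower. JOX2, an oxygenase that hydroxylates jasmonic acid, averaged 22.0 CPM in ref4-3 cdk8-1 and 192 CPM in WT, at −3.13 ± 0.26 (edgeR adjusted p = 2.48e-08). The amidohydrolases IAR3 and ILL6 were at −2.13 ± 0.22 and −1.86 ± 0.23. In ref4-3, 1 rose and 4 fell, where 39.9% of all tested genes were called. In ref4-1, 1 rose and 1 fell, near the 20.9% of all tested genes called there. JOX3, a second jasmonic acid oxygenase, was the one that rose in both ref4 mutants, at 1.23 ± 0.23 in ref4-3 and 1.39 ± 0.23 in ref4-1. In cdk8-1 it was at −1.53 ± 0.28. In cdk8-1, 5 of 8 fell, where 11.8% of all tested genes were called lower.

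Of 13 JAZ repressor genes, 10 fell in ref4-3 cdk8-1, with a median of −1.93, among them JAZ9 at −2.55 ± 0.29, JAZ1 at −2.11 ± 0.26 and JAZ6 at −1.93 ± 0.21. The counts were 1 up and 6 down in ref4-3, 0 up and 4 down in cdk8-1, and 0 up and 1 down, JAZ8, in ref4-1. Of all tested genes 42.6% were called in the double mutant, 39.9% in ref4-3, 19.8% in cdk8-1 and 20.9% in ref4-1. Of 13 genes of perception and transcription, 1 rose and 6 fell in the double mutant and 0 rose and 6 fell in cdk8-1, where 42.6% and 19.8% of all tested genes were called. In ref4-3, 1 rose and 0 fell, where 39.9% of all tested genes were called. In ref4-1 edgeR, DESeq2 and limma voom called 0 of the 13 each, and 2 had an unadjusted p under 0.05. MYC2, the leading transcription factor of the pathway, was at −1.06 ± 0.18 in the double mutant and −0.84 ± 0.18 in cdk8-1. JAV1, a repressor of defence, was at −1.84 ± 0.28 in the double mutant.

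Of 11 other outputs of wounding and jasmonate, 10 fell in ref4-3 cdk8-1, with a median of −2.56. TAT3, a tyrosine aminotransferase gene, was at −4.28 ± 0.36, CLH1, which encodes a chlorophyllase, at −3.53 ± 0.25 and the lectin gene JR1 at −1.99 ± 0.22. In ref4-3, 2 rose and 4 fell, among them CLH1 at −2.04 ± 0.23 and the lectin-family gene JAL23 at −2.01 ± 0.28. In ref4-1, 2 rose and 3 fell, JAL23 at −1.13 ± 0.27 among them, and in cdk8-1, 0 rose and 6 fell, CLH1 at −1.21 ± 0.23 among them. For this and the next 2 lists the share of all tested genes called was 42.6% in the double mutant. That share was 39.9% in ref4-3, 20.9% in ref4-1 and 19.8% in cdk8-1. DOX1, an alpha-dioxygenase gene, rose in ref4-3 at 2.65 ± 0.29 and in ref4-1 at 1.62 ± 0.31, fell in cdk8-1 at −2.14 ± 0.52, and at 0.41 was the 1 output not called in the double mutant. Of 6 tested acid phosphatase relatives of VSP, 1 rose and 2 fell in the double mutant, near the share of all tested genes called there, 2 rose and 2 fell in ref4-3, and 1 rose and 2 fell in ref4-1. In cdk8-1 edgeR, DESeq2 and limma voom called 0 each, with 1 at an unadjusted p under 0.05. AT1G04040 was at −1.94 ± 0.16 in the double mutant, −1.87 ± 0.16 in ref4-3 and −1.24 ± 0.16 in ref4-1. The last list held 5 genes, LOX1, LOX5, HPL1, OPR1 and OPR2. Of these, 1 rose and 3 fell in the double mutant, and 1 rose and 2 fell in ref4-3. In cdk8-1, 0 rose and 3 fell, and in ref4-1, 2 rose and 1 fell. The 2 that fell in ref4-3 were OPR1, at −2.01 ± 0.08, and OPR2, at −0.91 ± 0.12. HPL1, the hydroperoxide lyase gene, of which Col-0 is known to carry an inactive allele, was at −1.42 ± 0.10 in the double mutant, −1.44 ± 0.10 in cdk8-1 and 0.41 ± 0.10 in ref4-1.

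**Figure D5:**
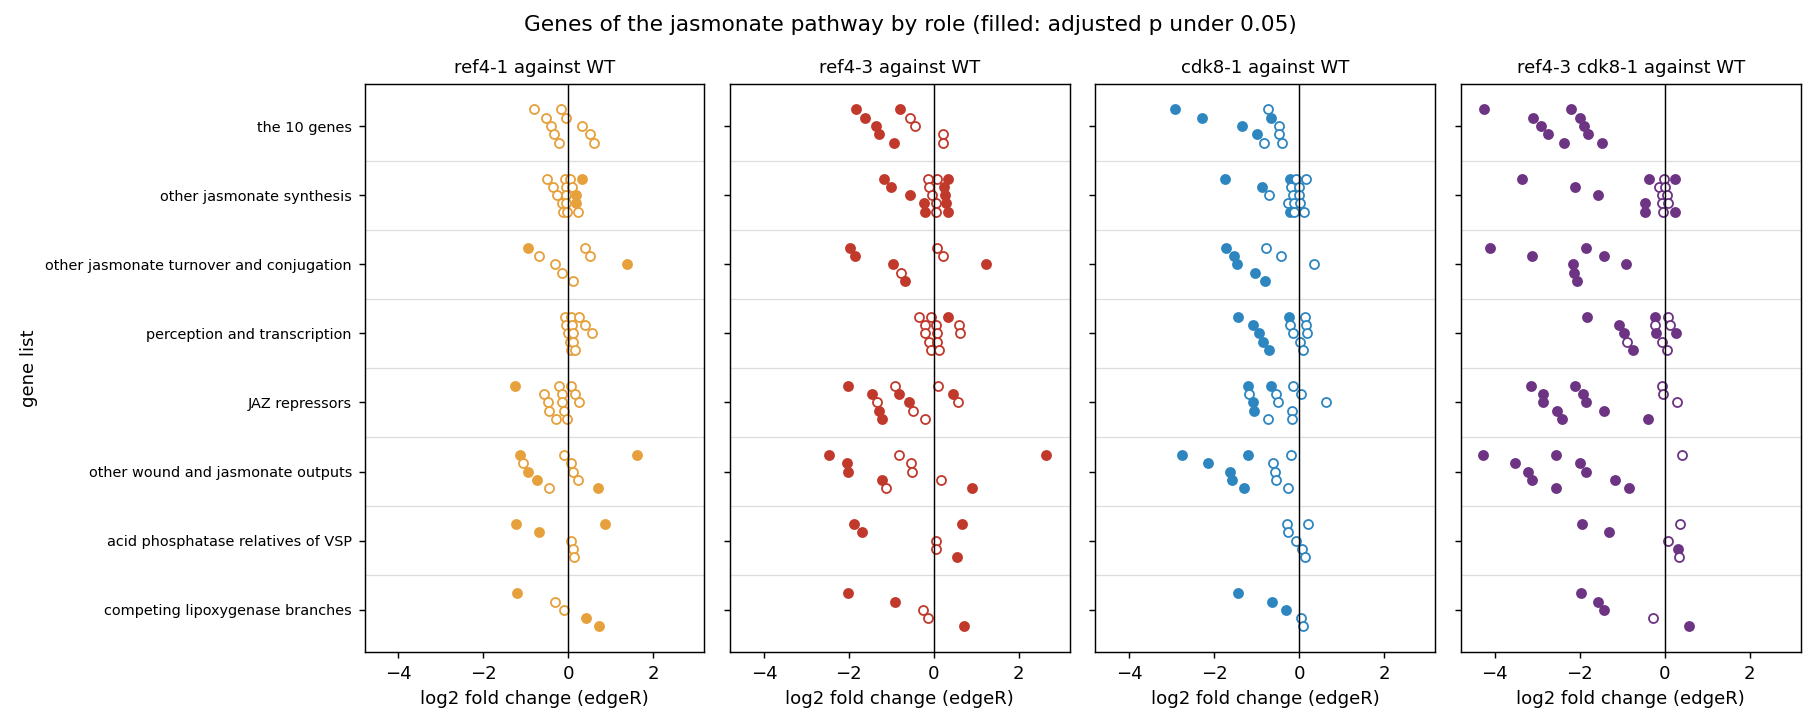
Log2 fold change against WT (horizontal axes) of every tested gene in 8 lists, 1 panel per mutant with 3 libraries each, filled where the adjusted p was under 0.05 in edgeR. In the double mutant all 10 genes of the top row and all 8 turnover genes lie left of 0.

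The genes whose levels ran most like those of the 10 over the 15 libraries were taken by Pearson r of log2 CPM, as a description over libraries that share genotype and pool. OPR3 ran with TIFY10B, which is JAZ2, at r = 0.990 and AT5G44050 at 0.986. AOS ran with ATBETAFRUCT4 at 0.989 and ACT1 at 0.985, AOC1 with ATBETAFRUCT4 at 0.988 and TIFY7, which is JAZ9, at 0.984, and LOX2 with FAMT at 0.987 and OPCL1 at 0.986. AOC2 ran with CLH1 and AT4G29700, both at 0.983, CYP94C1 with LOX4 at 0.983 and MBP2 at 0.979, and LOX3 with AT1G31550 at 0.977 and JAZ1 at 0.976. The VSP genes had different partners, AT1G14250 at 0.970 and ATBFRUCT1 at 0.962 for VSP1, and P58IPK at 0.973 and AT4G17470 at 0.972 for VSP2. CYP94B3 had the lowest of these values, DXPS1 at 0.957 and SSP4b at 0.948.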

How the data were processed

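The authors deposited raw counts for each gene and library. The submitters' processing notes name Trimmomatic, TopHat2 2.1.0, HTSeq 0.6.1, edgeR and the build TAIR10. The counting mode was not given in the sources used here, nor whether strand was used. Rows of reads outside genes were left out, and relative to gene counts they were 0.667 to 1.05% with no feature, 1.63 to 6.67% ambiguous and 2.37 to 6.62% not unique. Of the 33601 loci, 32834 were found in RefSeq TAIR10.1, from which lengths, positions and sequences were read.

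The filter kept 18935 genes that exceeded 1 CPM in 3 or more of 15 libraries. TMM factors ran from 0.937 to 1.08, and counts were fitted by quasi-likelihood in edgeR 4.0.16 (R 4.3.3), with all 15 libraries in 1 model of genotype, 8 contrasts, a prior count of 0.125 and Benjamini-Hochberg adjustment over all tested genes. Calls have an adjusted p under 0.05, fold changes are mutant over WT or first-named over second, and each SE was taken as the absolute log2 fold change divided by root F. Alternatives were DESeq2 1.42.0, limma 3.58.1 with voom, other scaling, no filter, only the groups compared, a replicate block, summed gene pairs and each library left out. Ratios within a library were tested by exact permutation within the other genotype's background.

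The 10 genes and the lists were chosen with earlier results of these data known. Beside them and the 2 mutated genes, up to 3 called genes per list and comparison with the smallest adjusted p are named, and the 2 genes of at least 5 CPM most like each of the 10. No replicate pair agreed within sampling noise (chi-square per degree of freedom 2.67 to 14.7). The labels do not say whether replicates were grown apart, so p-values measure the spread between these pools.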

Additional observations from a re-analysis of the deposited data

Results flagged for a closer look

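In 3 genes of the pathway lists, none of them among the 10, the ref4-3 difference itself differed between the 2 CDK8 backgrounds by edgeR's interaction test. They are 3 of 72 tested list genes, or 4.17%, where 5.13% of all tested genes were called. TAT3, an output gene, had an interaction of −2.12 ± 0.45 log2 (edgeR adjusted p = 0.0105) and averaged 296 CPM in ref4-3, 136 CPM in cdk8-1, 21.9 CPM in ref4-3 cdk8-1 and 424 CPM in WT. TPL, a co-repressor gene, had an interaction of −0.33 ± 0.08 (edgeR adjusted p = 0.0206) and averaged 143 CPM in ref4-3, 125 CPM in cdk8-1, 125 CPM in ref4-3 cdk8-1 and 114 CPM in WT. OPR2 had an interaction of 0.59 ± 0.17 (edgeR adjusted p = 0.0492) and averaged 6.24 CPM in ref4-3, 12.2 CPM in cdk8-1, 9.79 CPM in ref4-3 cdk8-1 and 11.8 CPM in WT. The annotated locus of OPR2 overlaps that of OPR1, so its counts are uncertain. Its call was lost with upper-quartile scaling, with no filter, in DESeq2, in limma voom, with a replicate block and in most fits with a library left out.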

How the results depend on the processing

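The 10 falls of ref4-3 cdk8-1 against WT held under all alternatives run. Other scaling moved the median of all genes by at most 0.025 log2 and changed no call of the 10. Values that reversed were all of uncalled genes, and their causes were not tested. With no filter, 7 of 80 values of the 10 genes over the 8 contrasts gained a call, OPR3 in ref4-3 against WT among them. The larger changes in the counts of calls among the 10 were as follows. In ref4-1 against WT there were 0, but 1 with no filter and 1 in limma voom, and 0 to 1 with a library left out. In cdk8-1 against WT there were 5, but 9 with only the groups compared, and 2 to 7 with a library left out. In ref4-3 against ref4-1 there were 5, but 1 in DESeq2 and 0 with only the groups compared, and 0 to 8 with a library left out. In the interaction there were 0, but 1 with no filter and 1 with only the groups compared, and 0 to 1 with a library left out. With a library left out, calls ran from 6 to 8 in ref4-3 against WT, 7 to 10 in the double mutant against ref4-3 and 6 to 9 against cdk8-1. Calls over all genes were 2552 in place of 3962 in ref4-1 against WT and 637 in place of 2064 in ref4-3 against ref4-1 with only the groups compared. With a library left out they ran from 929 to 2163 in ref4-3 against ref4-1 and from 541 to 1369 in the interaction.

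With VSP1 and VSP2 summed, the pair was at 0.11 log2 in ref4-1 against WT and −0.52 in ref4-3 against WT. In limma voom CYP94B3 was at −0.10 in ref4-3 against WT, 0.13 in ref4-3 cdk8-1 against cdk8-1 and 0.23 in the interaction. With a library left out, log2 values in ref4-1 against WT ran from −0.30 to 0.0072 for LOX2, −0.092 to 0.64 for LOX3, −0.24 to 0.17 for OPR3 and −0.70 to 0.025 for VSP1. In ref4-3 against WT they ran from −0.66 to 0.62 for CYP94B3 and −0.060 to 0.39 for VSP2, and in ref4-3 cdk8-1 against cdk8-1 from −0.63 to 0.81 for CYP94B3. In ref4-3 against ref4-1 they ran from −1.27 to 0.13 for CYP94B3 and −0.57 to 0.0055 for VSP2. In the interaction they ran from −0.32 to 0.22 for AOS, −0.60 to 0.17 for AOC1, −0.37 to 0.050 for AOC2, −0.84 to 0.60 for CYP94B3 and −0.68 to 0.15 for CYP94C1. The log2 ratio of LOX3 to LOX2, uncalled, ran from 0.13 to 0.39 with ref4-3 and from −0.53 to −0.26 with cdk8-1, and had an unadjusted exact permutation p under 0.05 without ref4-3 replicate 1, and with cdk8-1 also without WT replicate 3.

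Whether replicate numbers pair the libraries was not settled, since no chance level was set for the correlations. Over 30 pairs with the same number, the correlation of deviations ran from −0.25 to 0.25, with a median of 0.02, and 7 pairs exceeded 0.1. The median over the 60 other pairs was −0.005, and 7 of 15 libraries correlated best with their own number. The replicate block added 2 calls among the 10 and removed 0: OPR3 in ref4-3 against WT (edgeR adjusted p = 0.0468), which made 7 calls there, and LOX3 in the double mutant against cdk8-1 (edgeR adjusted p = 0.0461), which made 9. The lowest genes rest on few reads, with as few as 2 counts of CYP94B3 in a library. No difference between its low groups was detected, and the part of sequencing depth in that was not tested.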
